A study of Mus musculus with 23 samples.

Results

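The 10 genes described here belong to the cytotoxic granule and lie outside the granzyme C locus, and they were followed through type 1 innate lymphoid cells (ILC1s) and NK cells: Prf1, Gzma, Gzmk, Gzmm, Srgn, Nkg7, Ctsc, Serpinb9, Serpinb9b and Serpinb6b. They were taken by symbol, and all 10 were present among the 35645 genes of the RNA table and were tested. By the gene column of the accessibility table they held 30 of 51412 peaks, all of them tested. RNA was sequenced from mice that carry reporters for granzyme C (GzmC), for its past expression (GzmcFM, a fate map) and for S1pr5 (S1pr5eGFP). Liver ILC1s were sorted as double-positive cells with present granzyme C (GzmC+GzmcFM+, DP, mice 3, 4, 5 and 6), as fate-mapped single-positive cells (GzmC-GzmcFM+, FMSP, mice 3, 4, 5 and 6) and as double-negative cells with neither mark (GzmC-GzmcFM-, DN, mice 2, 4 and 6). NK cells were sorted as S1pr5eGFP+ cells (mice 1, 4, 5 and 6), and each of the 15 libraries held all cells of a population from 1 mouse. ATAC-seq, which measures open chromatin, had 2 libraries each of salivary gland ILC1s, liver ILC1s, spleen NK cells and liver NK cells, from 50000 sorted cells per library. For these libraries the labels name the reporters, whereas the design text gives CD49a+ for ILC1s and CD49a-CD49b+ for NK cells, so the gate is not settled. The age and strain of the mice are not given in the labels, nor is a gate against T cells, and the fate map marks a cell whose ancestors once expressed granzyme C as well as the cell itself.

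Cytotoxic lymphocytes kill by releasing granules into the contact with a target cell. Perforin opens a passage through the target membrane, granzymes enter and cleave proteins inside, serglycin holds both in the granule, and cathepsin C trims granzymes to their active form. Serpins of the B clade, in the cytosol of the killer, bind granzymes that leak and so protect the cell from its own granules. NK cells and liver ILC1s both carry such granules, and ILC1s are commonly told from NK cells by their residency in the tissue and by little or no Eomes.

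Promoter windows of the genes are shown first, because open chromatin was measured over the starts of most of them. They were taken from RefSeq on GRCm38.p6, the assembly named mm10 by the authors, and span 250 bases before to 50 after a gene's start. Windows were found for all 10 genes (12 windows, 2 each for Gzmm and Srgn). Capitals mark 3 short cores searched on both strands, chosen after the sequences were seen: AGGTGT or its complement ACACCT, a core of T-box factors such as T-bet and Eomes, TGTGGT or ACCACA, a core of Runx factors, and AGGAAG or CTTCCT, a core of ETS factors. No 2 capital runs overlap in these windows. The windows shown are those of perforin and granzyme A, the effectors most studied in NK cells, of Nkg7, of Gzmm, all 3 of whose peaks were less open in ILC1s, and of the neighbours Serpinb9 and Serpinb9b.
Prf1 (chr10:61297586-61297885, plus strand) is printed first.
Prf1: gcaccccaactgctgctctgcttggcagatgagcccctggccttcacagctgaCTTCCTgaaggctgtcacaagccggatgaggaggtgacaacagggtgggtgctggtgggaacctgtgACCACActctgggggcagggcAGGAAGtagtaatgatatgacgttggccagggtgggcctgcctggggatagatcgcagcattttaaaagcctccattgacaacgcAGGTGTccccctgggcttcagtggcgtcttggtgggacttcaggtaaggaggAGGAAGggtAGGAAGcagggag
Gzma (chr13:113100932-113101231, minus strand) has a T-box and a Runx core before its start and no ETS core.
Gzma: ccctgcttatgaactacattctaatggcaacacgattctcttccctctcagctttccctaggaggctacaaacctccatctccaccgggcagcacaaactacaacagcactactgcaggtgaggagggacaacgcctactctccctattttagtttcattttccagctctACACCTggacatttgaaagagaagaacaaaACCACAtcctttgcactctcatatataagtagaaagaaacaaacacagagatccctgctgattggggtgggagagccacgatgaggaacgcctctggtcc
Nkg7 (chr7:43436888-43437187, plus strand) has all 3 cores.
Nkg7: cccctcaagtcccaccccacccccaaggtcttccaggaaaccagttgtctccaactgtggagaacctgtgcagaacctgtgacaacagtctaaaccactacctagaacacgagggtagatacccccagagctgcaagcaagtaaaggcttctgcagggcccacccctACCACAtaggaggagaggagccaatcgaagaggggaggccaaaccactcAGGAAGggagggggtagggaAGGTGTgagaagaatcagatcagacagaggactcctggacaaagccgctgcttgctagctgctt
Gzmm (chr10:79688770-79689069, plus strand) is shown at the upstream of its 2 starts.
Gzmm: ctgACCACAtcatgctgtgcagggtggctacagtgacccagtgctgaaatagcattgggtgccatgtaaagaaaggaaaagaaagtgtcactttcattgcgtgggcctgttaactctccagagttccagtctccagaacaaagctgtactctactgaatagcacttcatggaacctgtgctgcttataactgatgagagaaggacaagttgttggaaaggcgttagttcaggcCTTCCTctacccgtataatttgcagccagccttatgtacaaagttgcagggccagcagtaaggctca
Serpinb9 (chr13:33004291-33004590, plus strand) and Serpinb9b (chr13:33027164-33027463, plus strand) are paralogs that lie 9.46 kb apart.
Serpinb9: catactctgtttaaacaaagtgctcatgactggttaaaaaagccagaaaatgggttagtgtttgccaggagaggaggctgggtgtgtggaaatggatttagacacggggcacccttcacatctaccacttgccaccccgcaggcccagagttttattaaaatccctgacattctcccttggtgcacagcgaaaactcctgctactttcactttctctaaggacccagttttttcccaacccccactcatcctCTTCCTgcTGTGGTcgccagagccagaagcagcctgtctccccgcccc
Serpinb9b: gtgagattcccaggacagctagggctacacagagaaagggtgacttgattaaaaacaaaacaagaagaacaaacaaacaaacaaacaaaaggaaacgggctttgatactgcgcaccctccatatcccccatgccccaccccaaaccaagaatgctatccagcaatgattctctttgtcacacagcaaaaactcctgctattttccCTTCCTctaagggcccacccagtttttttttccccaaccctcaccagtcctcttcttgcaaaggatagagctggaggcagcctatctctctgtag

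The T-box core was in the windows of 4 of the 10 genes, Prf1, Gzma, Gzmk and Nkg7, and in 13.7% of all 32851 RefSeq mouse promoter windows of this length. It began 24 bases before the start in Prf1, 80 in Gzma and 14 in Nkg7. The Runx core was in 6 of the 10, Prf1, Gzma, Gzmm, Srgn, Nkg7 and Serpinb9, and in 16.8% of all windows. The ETS core was in 7 of the 10 and in 35.4% of all windows. Because the cores were chosen after these sequences were seen, these shares cannot show that a core is more frequent in the 10 genes. The units also differ, since a gene was counted if any of its windows held the core, whereas the percentages count windows. A match describes these letters and not a bound site. Aligned end to end, the Serpinb9 and Serpinb9b windows were identical in 59.4% of 323 columns, while the other 5 pairs aligned, from Serpinb9b with Serpinb6b to Prf1 with Gzma, were identical in 45.4% to 49.9%. Gzma and Gzmk lie 70.6 kb apart on chromosome 13, and Serpinb6b, Serpinb9 and Serpinb9b stand in a row on the same chromosome.

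RNA libraries held 51641248 to 73309063 counts and ATAC libraries 5609587 to 26944890 counts in peaks. Levels are CPM, counts scaled to a common library sum, on library sizes scaled by the trimmed mean of M values (TMM), and they are compared between populations for 1 gene and never between genes, since the gene lengths behind the counts are not given. A gene counts as changed when its Benjamini-Hochberg adjusted p in edgeR's quasi-likelihood test over all 17124 genes was below 0.05. Cell type markers followed the labels: the summed level of 5 ILC1 markers (Itga1, Cxcr6, Zfp683, Il7r and Cd200r1) was 2035 to 2145 CPM in DP, 1685 to 1838 CPM in FMSP and 993 to 1637 CPM in DN, against 14.4 to 27.7 CPM in NK cells. The summed level of 5 NK cell markers (Eomes, Itga2, S1pr5, Itgam and Klra8) was 57.6 to 124 CPM in DP, 49.3 to 80.2 CPM in FMSP and 156 to 500.2 CPM in DN, against 2427 to 2692 CPM in NK cells, with none of the 5 at 0 in any population. NK cells were sorted on the S1pr5 reporter, so the S1pr5 part of this sum follows from the sort. T cell markers (9 genes) summed to 426 to 1220.2 CPM in DP, 602 to 1647 CPM in FMSP and 658 to 1840.2 CPM in DN, against 22.6 to 80.7 CPM in NK cells. Cd3g, a subunit of the T cell receptor complex, gave most of the sum in DP, and the other 8 markers summed to 59.5 to 199.8 CPM in DP, 128 to 757 CPM in FMSP and 501 to 1282 CPM in DN, against 20.01 to 72.0 CPM in NK cells, with every DN library above every DP library. Macrophage markers (8 genes) were highest in the mouse 3 libraries of DP (690.5 CPM, the others 37.3 to 149 CPM) and FMSP (599 CPM, the others 43.2 to 341 CPM), in mouse 2 of DN (1523 CPM, the others 128 and 305 CPM) and in mouse 1 of NK cells (249.6 CPM, the others 35.1 to 147 CPM). Neutrophil markers (5 genes) summed to 658 to 1059 CPM in DP, 453 to 1184 CPM in FMSP and 330 to 423 CPM in DN. In NK cells they summed to 27.1 to 84.6 CPM, below every ILC1 library. B cell markers (4 genes) summed to 35.3 to 237 CPM in DP, 80.9 to 248 CPM in FMSP, 163 to 190 CPM in DN and 63.0 to 220 CPM in NK cells. The part of these markers in the differences below was not tested, and in bulk libraries fewer cells that express a gene and less RNA per cell cannot be told apart. The libraries FMSP of mice 5 and 6 and DN of mouse 2 were high in hepatocyte markers (8 genes, 789, 1776 and 730 CPM, against 61.0 to 350.0 CPM in the other 12).

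Most of the granule genes were lower in ILC1s than in NK cells. In the mean of the 3 ILC1 populations, 8 of the 10 fell (3.02% of all genes tested were lower) and 0 rose (2.90% of all genes tested were higher). DESeq2 called the same numbers, 8 lower and 0 higher (10.8% of all genes tested were called). With the mouse as a replicate block 9 passed (12.7%), 8 lower and Srgn higher (adjusted p = 0.0317), and within mice 4 to 6 alone all 10 passed (13.2%), 9 lower and Srgn higher (adjusted p = 0.0267). The 8 were Prf1, Gzma, Gzmm, Nkg7, Ctsc, Serpinb9, Serpinb9b and Serpinb6b, while Gzmk and Srgn did not pass with all libraries and no block. The median log2 fold change of the 10 was -1.83, against 0.08 over all genes tested. In DP 5 of the 10 fell (1.58% of all genes tested) and 0 rose (2.51%), in FMSP 7 fell (1.59%) and 0 rose (2.48%), and in DN 5 fell (1.18%) and 0 rose (1.81%). Srgn was higher at an unadjusted p of 0.00762 in DP and 0.0392 in FMSP, and none of the 10 was higher in DN at an unadjusted p below 0.05. The same 4 NK libraries serve these comparisons, so they are not independent of each other. In DP, 9 of the 10 passed with the mouse as a replicate block (9.62% of all genes tested) and 9 within mice 4 to 6 alone (9.17%), in each 8 lower and Srgn higher. DESeq2 gave 8 there (8.75%), 7 lower and Srgn higher.

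**Figure D1:**
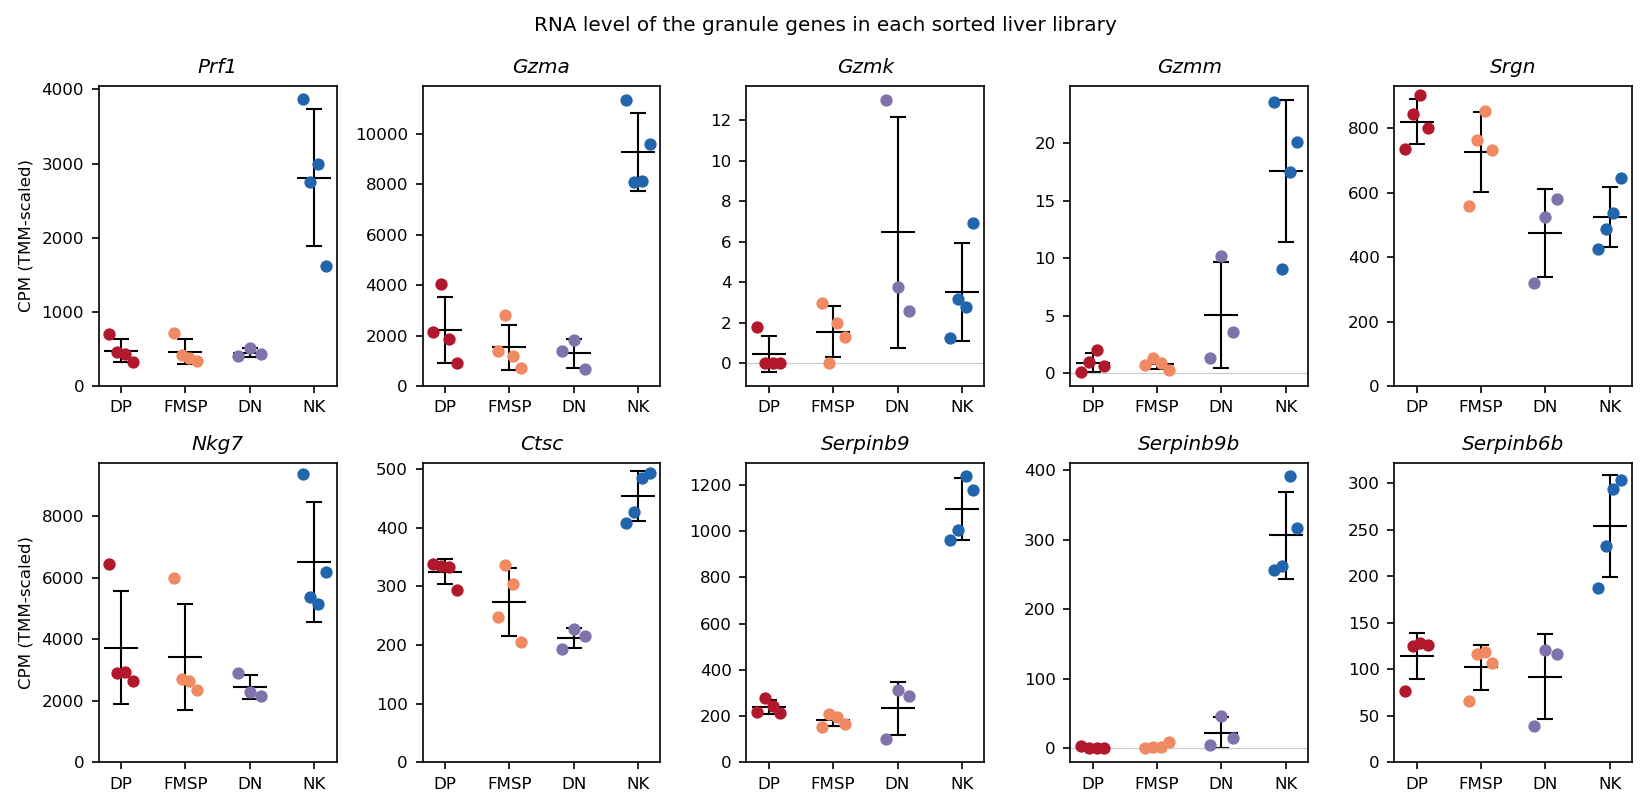
RNA level of the 10 granule genes in CPM (linear axes), 1 point per library, with the mean and SD of DP, FMSP, DN and NK. Prf1, Gzma, Ctsc and the 3 serpins have no ILC1 library at or above the lowest NK library, as do 2.51% of all genes tested. Srgn is higher in every DP library (735 to 902 CPM) than in NK cells (425 to 645 CPM), as are 6.38% of all genes tested.

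Perforin, the pore-forming protein without which granzymes do not reach the target, fell in all 3 ILC1 populations. Libraries are given in the order of the mice named above. Prf1 had 699.8, 454, 426 and 328 CPM in DP, 709, 416, 379 and 338 CPM in FMSP and 405, 515 and 425 CPM in DN, against 3867, 2754, 2988 and 1622 CPM in NK cells. Every ILC1 library was below every NK library (2.51% of all genes tested). The highest libraries of DP, FMSP and NK cells, from mice 3, 3 and 1, were also those highest in macrophage, neutrophil and B cell markers. In DN the library highest in macrophage markers, that of mouse 2, had the lowest Prf1. The log2 fold change was -2.56 ± 0.32 in DP (SE, adjusted p = 0.000157), -2.61 ± 0.32 in FMSP (adjusted p = 0.000142) and -2.65 ± 0.36 in DN (adjusted p = 0.000704). In the mean of the ILC1 populations against NK cells it was -2.60 ± 0.23 (adjusted p = 5.36e-06), a 6.08-fold lower level. Within a mouse, Prf1 was lower than in NK cells of the same animal in 8 of 8 pairs from mice 4 to 6, by 1.93 to 2.98 on the log2 scale. Pairs here and below reuse the NK library of each mouse, and the share over all genes was not measured. The 3 ILC1 populations lay close together, with a difference of 0.05 ± 0.30 between DP and FMSP and of 0.09 ± 0.32 between DP and DN.

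Granzyme A, the trypsin-like granzyme of NK cells and cytotoxic T cells, fell by a similar size with a wider spread. Gzma had 2149.5, 4027, 1851 and 901 CPM in DP, 1387, 2819.5, 1204 and 713 CPM in FMSP and 1398, 1819 and 674 CPM in DN, against 11366, 8087, 8130.2 and 9587 CPM in NK cells. No ILC1 library reached an NK library (2.51% of all genes tested). The libraries of mouse 4 were the highest of each ILC1 population and those of mouse 6 the lowest. The log2 fold change was -2.06 ± 0.47 in DP (adjusted p = 0.0181), -2.60 ± 0.48 in FMSP (adjusted p = 0.00413) and -2.84 ± 0.54 in DN (adjusted p = 0.00767). In DP it did not pass without the library of mouse 5 (adjusted p = 0.0673), and within mice 4 to 6 it passed neither in DP (-1.94, adjusted p = 0.106) nor in DN (-2.79, adjusted p = 0.0609). FMSP did not pass once those 3 hepatocyte-high libraries were left out (-2.14, adjusted p = 0.0833). The Gzma gene lies within the span of Cdc20b, and since the counting is not stated to use strand, reads of overlapping genes cannot be told apart.

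Granzymes K and M stood at low levels in ILC1s. Gzmk, a second trypsin-like granzyme beside Gzma, had 1.81, 0, 0 and 0 CPM in DP, 2.99, 0, 1.96 and 1.27 CPM in FMSP and 13.0, 3.78 and 2.59 CPM in DN, against 1.24, 3.14, 2.76 and 6.91 CPM in NK cells. The populations overlapped, except that DP lay below DN (4.12% of all genes tested). Gzmk passed in no comparison (-2.95 ± 1.93 in DP, -1.17 ± 1.82 in FMSP, 0.88 ± 1.92 in DN, adjusted p = 0.568, 0.878 and 0.887). In the DP libraries of mice 4, 5 and 6 it had 0 counts, against 193, 170 and 462 counts in NK cells of the same mice. DP was lower with the library of mouse 3 left out (adjusted p = 0.0217) and within mice 4 to 6 (adjusted p = 0.0201). The highest library, DN of mouse 2, was also the library with the most T cell marker RNA, 1840.2 CPM, and without it the difference of DN from NK cells was -0.15 in place of 0.88.

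Gzmm encodes granzyme M, which cleaves after methionine or leucine. It had 0.0675, 0.996, 1.97 and 0.631 CPM in DP, 0.714, 1.31, 0.838 and 0.300 CPM in FMSP and 1.34, 10.2 and 3.55 CPM in DN, against 23.6, 9.06, 17.5 and 20.2 CPM in NK cells. DP (5.4% of all genes tested) and FMSP (5.14%) lay below all NK libraries, and DN of mouse 4 overlapped with NK cells of the same mouse. It fell in DP (-4.26 ± 0.94, adjusted p = 0.0148) and in FMSP (-4.47 ± 0.95, adjusted p = 0.0120) and did not pass in DN (-1.80 ± 0.94, adjusted p = 0.363). The call in DP was lost without the library of mouse 4 (adjusted p = 0.0506) or of mouse 6 (0.0562), and the FMSP call was lost once the 3 hepatocyte-high libraries were left out (0.0977). DN differed from DP by an unadjusted p of 0.0161 (DP minus DN -2.46 ± 0.90, adjusted p = 0.402).

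**Figure D2:**
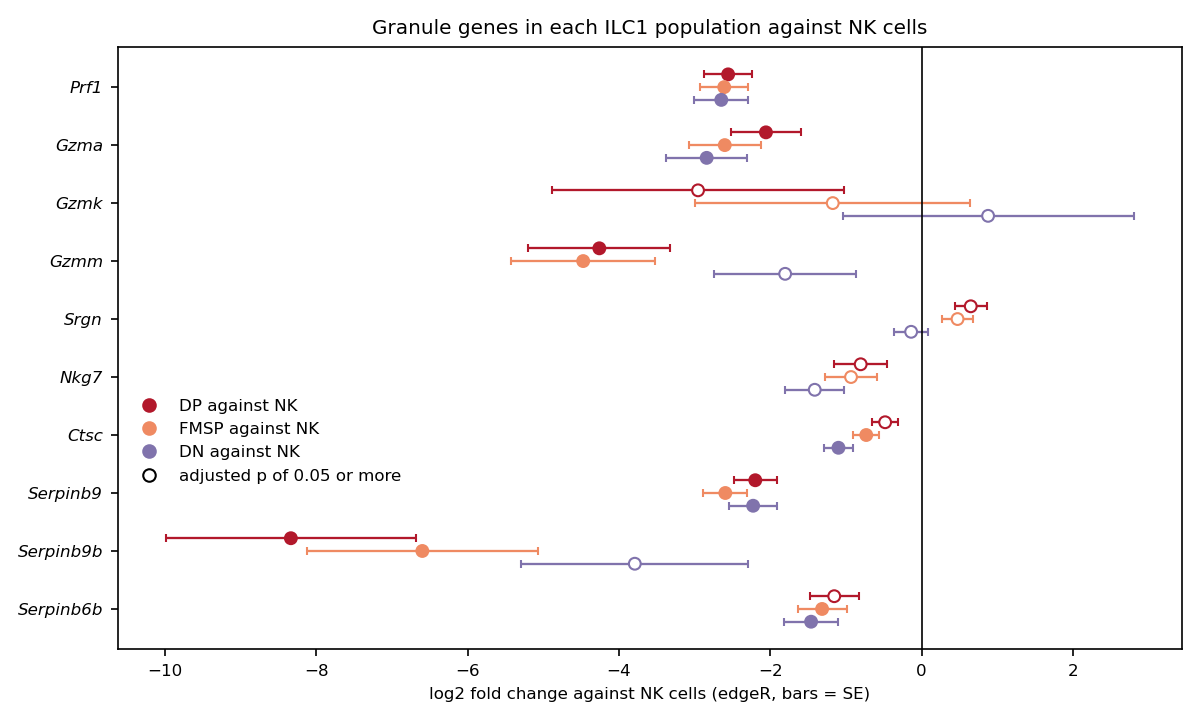
Fitted log2 fold change with SE of each ILC1 population against NK cells, filled where the adjusted p was below 0.05. Serpinb9b, with -8.34 for DP, -6.60 for FMSP and -3.79 for DN, and Gzmm spread between the populations, while Prf1 and Serpinb9 lie between -2.20 and -2.65 throughout.

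For the genes that store, release and activate the granule contents the estimated fold changes were smaller than for Prf1 in every population. Serglycin, the proteoglycan core that binds perforin and granzymes, had the 1 positive estimate of the 10 in the ILC1 mean against NK cells (0.33 ± 0.18, adjusted p = 0.380). Srgn had 735, 845, 902 and 800.4 CPM in DP, 558, 764, 853 and 733 CPM in FMSP and 321, 523 and 582 CPM in DN, against 425, 487, 536 and 645 CPM in NK cells. Every DP library was above every NK library (6.38% of all genes tested) and every DN library (4.22%), while FMSP and DN overlapped with NK cells. The log2 fold change was 0.65 ± 0.21 in DP (adjusted p = 0.124), 0.47 ± 0.21 in FMSP (adjusted p = 0.316) and -0.14 ± 0.23 in DN (adjusted p = 0.844). With the mouse as a replicate block Srgn was higher in DP (adjusted p = 0.00519), FMSP (0.0276) and the ILC1 mean (0.0317), and it was higher in 7 of 8 pairs within mice 4 to 6. DESeq2 called it higher in DP against NK cells (0.0151) and against DN (0.0180). In DN the sign turned to 0.07 without the library of mouse 2.

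Nkg7, a membrane protein of the granule that takes part in its release, stood high in single libraries. It had 6459, 2896, 2927 and 2638 CPM in DP, 5977, 2708, 2634 and 2337 CPM in FMSP and 2900.2, 2296 and 2148 CPM in DN, against 9359, 5388, 5152 and 6178 CPM in NK cells. DP and FMSP of mouse 3 and NK of mouse 1 stood above the other libraries of their populations, and both mouse 3 libraries overlapped with NK cells. These 3 libraries were also the highest of their populations in macrophage, neutrophil and B cell markers. The ILC1 mean was lower by -1.05 ± 0.27 (adjusted p = 0.0326), a call lost when any of 11 of the 15 libraries was left out in turn (adjusted p from 0.0511 to 0.155, the last without NK of mouse 1). The single populations did not pass, with -0.81 ± 0.35 in DP (adjusted p = 0.300), -0.93 ± 0.35 in FMSP (0.209) and -1.41 ± 0.39 in DN (0.0697). With the mouse as a replicate block all 3 were lower (adjusted p = 8.27e-05, 4.14e-05 and 0.000108), and within mice 4 to 6 Nkg7 was lower in 8 of 8 pairs.

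Cathepsin C, the peptidase that activates granzymes, was lower by less than 1 log2 unit in most comparisons. Ctsc had 337, 335, 333 and 293 CPM in DP, 248, 336, 303 and 206 CPM in FMSP and 194, 226 and 215 CPM in DN, against 409, 427, 485 and 494 CPM in NK cells. All ILC1 libraries were below all NK libraries (2.51% of all genes tested), and DN lay below DP with no overlap (4.22%). It fell in FMSP (-0.73 ± 0.17, adjusted p = 0.0241) and in DN (-1.10 ± 0.19, adjusted p = 0.00412), and in DP it stood at -0.48 ± 0.17 (adjusted p = 0.176, and 0.0497 with the replicate block). The call in FMSP was lost without FMSP of mouse 6 or without NK of mouse 5 or 6 (adjusted p from 0.0711 to 0.0801). It was also lost by library totals (0.0808), with no low-count filter (0.0642), without the 3 hepatocyte-high libraries (0.128) and in a fit of FMSP and NK cells alone (0.0700). DP minus DN was 0.62 ± 0.19 (adjusted p = 0.340, and 0.0122 in DESeq2). The predicted gene Gm26522 is the name the table gives to the peak over the Ctsc start, so reads at that end may be shared.

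All 3 granzyme inhibitors fell in the ILC1 mean. Serpinb9, the inhibitor of granzyme B, had 216, 278, 244 and 215 CPM in DP, 152, 207, 198 and 167 CPM in FMSP and 102, 312 and 288 CPM in DN, against 961, 1003, 1239 and 1176 CPM in NK cells. The groups were far apart, and DN of mouse 2 was the lowest library. The log2 fold change was -2.20 ± 0.28 in DP (adjusted p = 0.000213), -2.59 ± 0.29 in FMSP (adjusted p = 6.19e-05) and -2.23 ± 0.32 in DN (adjusted p = 0.00108). In the ILC1 mean against NK cells it was -2.34 ± 0.21 (adjusted p = 5.54e-06), and these calls held under every alternative run for them.

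Serpinb9b, which in the mouse inhibits granzyme M, had the largest fold change of the 10 genes. It had 3.07, 0.0474, 0.673 and 0 CPM in DP, 0.017, 2.30, 1.69 and 8.66 CPM in FMSP and 4.19, 47.2 and 15.1 CPM in DN, against 256, 262, 392 and 317 CPM in NK cells. Every ILC1 library was below every NK library (2.51% of all genes tested), and DN lay above DP (4.12%). It fell in DP (-8.34 ± 1.65, adjusted p = 0.00692) and in FMSP (-6.60 ± 1.52, adjusted p = 0.0214), and in DN it stood at -3.79 ± 1.50 (adjusted p = 0.224). The call in FMSP was lost without FMSP of mouse 4 (0.0773) or mouse 5 (0.0764), with the hepatocyte-high libraries left out (0.0732) and with no low-count filter (0.0961). DP minus DN was -4.54 ± 1.43 (adjusted p = 0.353), and within mice 4 to 6 this difference passed (adjusted p = 0.0489, the only 1 of the 10 genes, where 0.210% of all genes tested passed).

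Serpinb6b, an inhibitor of granzyme A in the mouse, had 77.2, 125, 128 and 126 CPM in DP, 66.3, 116, 119 and 107 CPM in FMSP and 39.6, 121 and 116 CPM in DN, against 187, 232, 294 and 303 CPM in NK cells. The libraries of mice 1, 2 and 3 were the lowest of their populations and the highest in macrophage markers. ILC1s lay below NK cells with no overlap (2.51% of all genes tested). The ILC1 mean was lower by -1.31 ± 0.25 (adjusted p = 0.00416). FMSP (-1.32 ± 0.32, adjusted p = 0.0319) and DN (-1.46 ± 0.36, adjusted p = 0.0404) passed, and DP did not (-1.16 ± 0.32, adjusted p = 0.0643, and 0.000147 with the replicate block). The call in FMSP was lost without any of its 4 libraries or without NK of mouse 4, 5 or 6 (adjusted p from 0.0581 to 0.0966), and by library totals (0.105). That in DN was lost without DN of mouse 2 or 6 or NK of mouse 4, 5 or 6 (adjusted p from 0.0602 to 0.104), by library totals (0.131), without the hepatocyte-high libraries (0.130) and in a fit of DN and NK cells alone (0.144). The 3 serpins are near relatives, and reads that fit more than 1 of them may have been split between them by a rule not given in the sources used here. RefSeq also places predicted genes within Serpinb9 and Serpinb9b, whose reads cannot be told apart without strand.

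Gzmm and Serpinb9b differed among the DN libraries in the order of the NK cell marker sum. DN of mouse 4 had the most of both (10.2 and 47.2 CPM) and a marker sum of 500.2 CPM, DN of mouse 6 had 3.55 and 15.1 CPM with a sum of 234 CPM, and DN of mouse 2 had 1.34 and 4.19 CPM with a sum of 156 CPM. DP and FMSP had sums between 49.3 and 124 CPM. Prf1, Ctsc, Serpinb9 and Serpinb6b followed the same order in DN, while Gzma, Gzmk, Srgn and Nkg7 did not. The share of all genes that take this order among the DN libraries was not measured. The part of NK cells in these DN values was not tested.

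**Figure D3:**
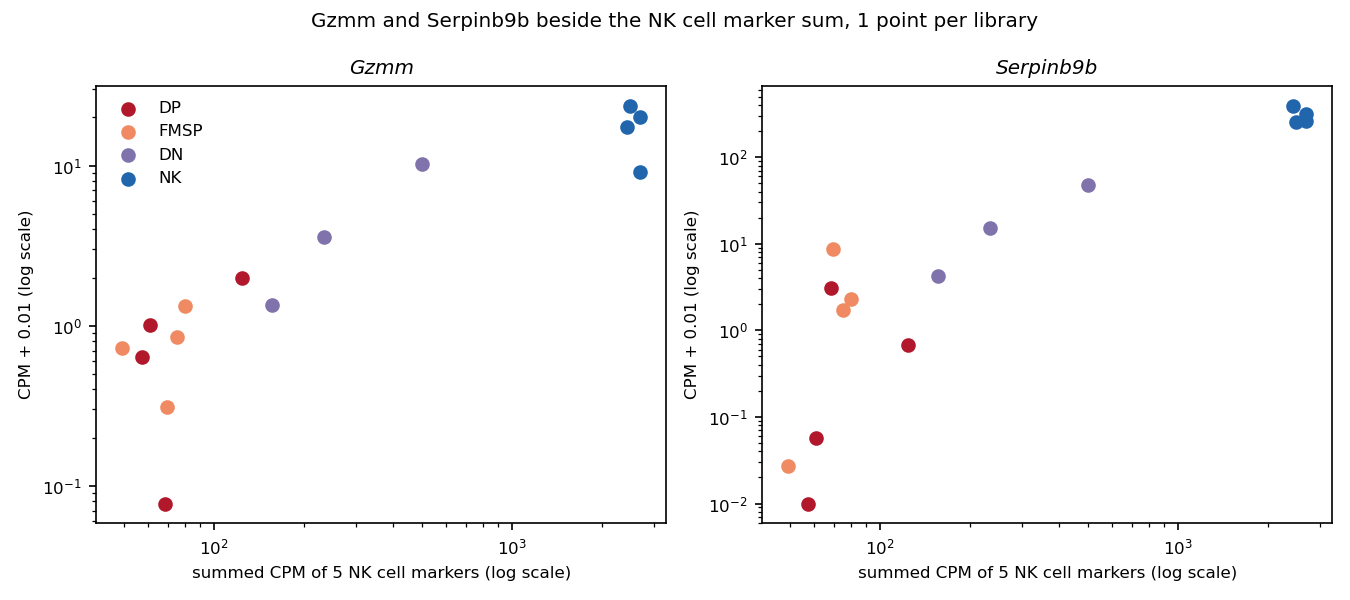
Gzmm and Serpinb9b (CPM plus 0.01, log scale) against the summed CPM of 5 NK cell markers (log scale), 1 point per library. The 3 DN libraries lie between the other ILC1 libraries and the NK libraries in marker sum, from 156 to 500.2 CPM, and among these 3 both genes are higher where the sum is higher. Prf1, Ctsc, Serpinb9 and Serpinb6b, not drawn, have the same order in DN. S1pr5 is among the 5 markers, and NK cells were sorted on its reporter.

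Among the ILC1 populations themselves, which were sorted by the granzyme C reporters, none of the 10 genes passed. Between DP and DN 0 of 10 passed in edgeR (0.0584% of all genes tested did). An unadjusted p below 0.05 was found for 4 (Gzmm, Srgn, Ctsc and Serpinb9b), against 10.2% of all genes tested, and DESeq2 called 2, Srgn and Ctsc higher in DP, against 2.98%. Between FMSP and DN 0 of 10 passed (0.00584%), 2 had an unadjusted p below 0.05 (Gzmm and Srgn, against 6.80%) and DESeq2 called 0 (1.33%). Between DP and FMSP 0 of 10 passed (0.00584%), 0 had an unadjusted p below 0.05 (4.49%) and DESeq2 called 0 (1.30%). These populations come in part from the same mice. With the mouse as a replicate block 0 of 10 passed between DP and DN (0.128% of all genes tested), between FMSP and DN (0.00584%) and between DP and FMSP (0.00584%), while the number with an unadjusted p below 0.05 was 8 between DP and DN (10.0% of all genes tested), 5 between FMSP and DN (7.42%) and 2 between DP and FMSP (6.09%). Gzma, Srgn, Nkg7, Serpinb9 and Serpinb6b were higher in DP than in FMSP of the same animal in 4 of 4 mice, as were 6.44% of all genes tested. A p above the threshold does not show equal levels: the SE of the DP minus DN difference was 0.32 for Prf1, 0.49 for Gzma and 1.43 for Serpinb9b.

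Other genes of the killing machinery were measured in the same libraries. In the granzyme C locus 3 of 9 genes passed the filter on low counts. Gzmc, on which the cells were sorted, averaged 374 ± 83.6 CPM in DP, 30.4 ± 8.68 CPM in FMSP and 11.4 ± 1.87 CPM in DN, against 2.31 ± 1.34 CPM in NK cells (SD). It was called higher than in NK cells in DP, in FMSP and also in DN. Gzmb, the main inducer of target cell death among granzymes, averaged 2542 ± 569 CPM in DP, 1559.8 ± 356 CPM in FMSP and 541 ± 122 CPM in DN, against 1384 ± 139 CPM in NK cells. It was higher than NK cells in DP (0.88 ± 0.22, adjusted p = 0.0330) and lower in DN (-1.35 ± 0.24, adjusted p = 0.00540), and in DP its inhibitor Serpinb9 was lower where Gzmb was higher. Cma1, a chymase gene of the same locus, was lower in the ILC1 mean (-7.32 ± 0.55, adjusted p = 1.55e-06).

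Of 17 genes of granule transport and fusion 1 was higher (2.90% of all genes tested) and 3 were lower (3.02%) in the ILC1 mean. Their median was -0.17, against 0.08 over all genes tested. Stx11, a syntaxin needed for the fusion of granules with the membrane, averaged 62.7 ± 21.4 CPM in DP, 51.0 ± 8.80 CPM in FMSP and 44.0 ± 12.5 CPM in DN, against 123 ± 15.2 CPM in NK cells, and was lower in all 3 (adjusted p = 0.0497, 0.00973 and 0.00916). Stx7 (-0.52 ± 0.14, adjusted p = 0.0419) and Rab7 (-0.43 ± 0.12, adjusted p = 0.0446), both of late endosomes, were lower. Lyst, which keeps lytic granules from growing together, was higher (1.66 ± 0.40, adjusted p = 0.0219). Rab27a and Unc13d, which dock and prime the granules, did not pass in any population. Of 10 genes of other granule proteases and their inhibitors 2 were lower in DN (1.18% of all genes tested) and no other call was made against NK cells. The 2 were Ctsd, an aspartic protease (-1.16 ± 0.29, adjusted p = 0.0432), and Cst7, the inhibitor cystatin F that restrains cathepsin C (-1.17 ± 0.23, adjusted p = 0.0103).

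Of 10 other serpin genes 6 were tested, and 2 of these were higher in the ILC1 mean (2.90% of all genes tested). Serpina3g (1.36 ± 0.24, adjusted p = 0.00225) and Serpina3f (3.10 ± 0.45, adjusted p = 0.000478) belong to the A clade. Serpina3g averaged 1257 ± 307 CPM in DP, 1150.3 ± 307 CPM in FMSP and 687 ± 192 CPM in DN, against 389 ± 112 CPM in NK cells. Of 7 genes of death ligands and cytotoxic surface receptors 2 were higher in the ILC1 mean (2.90% of all genes tested) and 0 were lower (3.02%). Tnfsf10, the death ligand TRAIL, was higher in all 3 populations (4.36 ± 0.38 in the ILC1 mean, adjusted p = 5.03e-06), and Cd226, an activating receptor, was higher in the ILC1 mean (2.44 ± 0.62, adjusted p = 0.0285). Of 14 transcription factors 1 was higher (2.90% of all genes tested) and 4 were lower (3.02%) in the ILC1 mean. Zfp683 (Hobit) was higher (6.77 ± 0.49), and Eomes (-5.36 ± 0.54), Zeb2 (-4.32 ± 0.66), Prdm1 (-1.31 ± 0.27) and Tbx21, which encodes T-bet (-1.01 ± 0.25, adjusted p = 0.0259), were lower. Eomes and Zfp683 are also among the markers used above.

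The genes most like Prf1 and Gzma across the 15 libraries were ranked by Pearson's r of log2 CPM over 8793 genes with a mean of 10 CPM or more. For Prf1 they were Irf8 (r = 0.975), Rasa3, Acss2, Vim and Gramd4 (r = 0.958). For Gzma they were Dcxr (r = 0.908), Gramd4, Snu13, Ncald and B4galt5 (r = 0.883). Irf8, an interferon regulatory factor, averaged 255 ± 84.0 CPM in DP, 241 ± 105 CPM in FMSP and 317 ± 104 CPM in DN, against 1947 ± 897 CPM in NK cells. The NK libraries form a cluster apart from the ILC1 libraries and libraries share mice, so r is a measure of likeness only.

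Open chromatin was then measured at the same genes. Of the 30 peaks 16 are of the promoter type in the authors' table, 5 lie in introns and 9 between genes, and 8 cover a RefSeq start. Distances are from the peak's centre to the nearest RefSeq start, and coordinates are those of the deposited table on mm10. Serpinb9b had no peak over its start, the start of Ctsc lay under a peak that the table assigns to Gm26522, and the most distant promoter peak given to Gzmk lies 46.1 kb upstream of its start, beyond Esm1. The labels number the ATAC libraries as mouse replicates 1 and 2 without saying that a number is the same animal across organs. Each p-value rests on a spread estimated from all 8 libraries, 2 per group with 4 residual degrees of freedom, and moderated over all peaks. A fit without 1 ATAC library leaves a single library in that group, so it shows how far a call leans on that library and no more.

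In the liver, 9 of the 30 peaks were lower in ILC1s than in NK cells (8.85% of all peaks tested) and 3 were higher (9.83%). The count of 12 was 7 without liver ILC1 replicate 2, 7 without liver NK replicate 1 and 6 without liver NK replicate 2. Salivary gland ILC1s had 11 peaks lower than spleen NK cells (26.2% of all peaks tested) and 6 higher (22.0%). Organ and cell type differ together in the comparison of salivary gland with spleen. In both comparisons the share of lower peaks was above, and that of higher peaks close to, the share over all peaks, which was not tested. In the mean of both ILC1 groups against that of both NK groups 20 of 30 peaks differed (44.0% of all peaks tested), 7 higher and 13 lower. That contrast mixes liver against liver with salivary gland against spleen. The median log2 fold change of the 30 peaks was -0.16 in the liver, against 0.00 over all peaks, and -0.30 between salivary gland ILC1s and spleen NK cells, against -0.09.

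**Figure D4:**
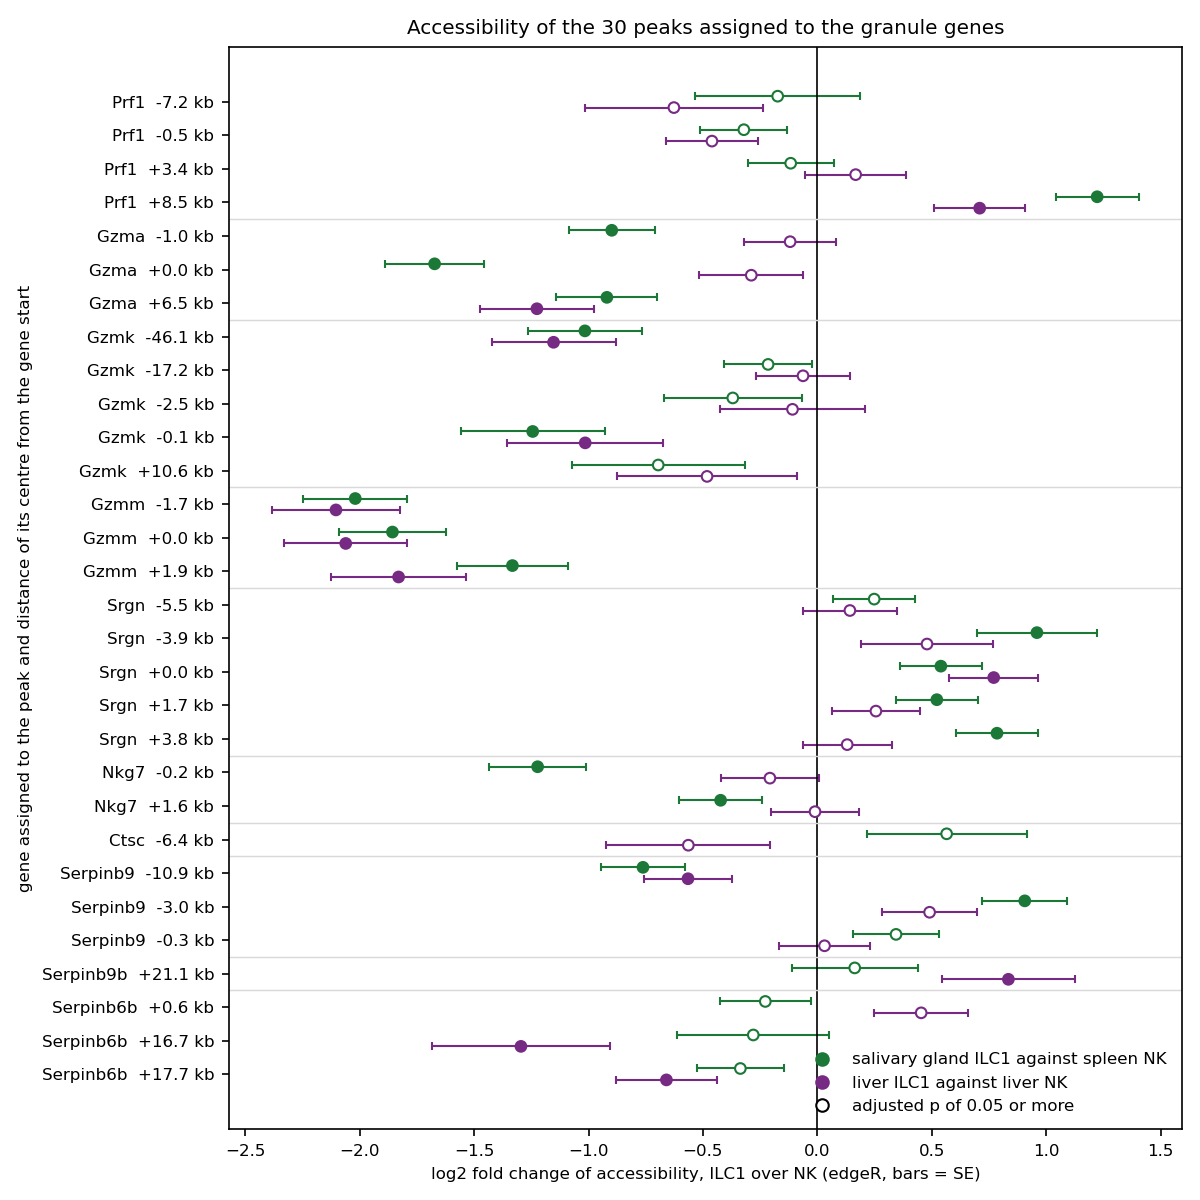
Fitted log2 fold change of accessibility with SE at each of the 30 peaks, named by gene and by distance of the peak's centre from the nearest start, filled where the adjusted p was below 0.05. All 3 Gzmm peaks lie between -1.33 and -2.10 in both comparisons, and the farthest Prf1 peak, 8.54 kb past the start, is at 1.22 and 0.71.

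Gzmm was less open in ILC1s at all 3 of its peaks in both comparisons. The peak over its start (chr10:79688550-79689547) had 6.36 and 5.56 CPM in salivary gland ILC1s, against 20.5 and 22.6 CPM in spleen NK cells. It had 4.04 and 5.17 CPM in liver ILC1s, against 21.4 and 17.5 CPM in liver NK cells. The log2 fold changes were, in that order, -1.86 ± 0.23 (adjusted p = 5.02e-14) and -2.06 ± 0.27 (adjusted p = 2.74e-12). The peak at chr10:79690532-79691377 was lower by -1.33 ± 0.24 and -1.83 ± 0.30, and that at chr10:79691776-79692550, which lies between the 2 RefSeq starts, by -2.02 ± 0.23 and -2.10 ± 0.28.

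At Prf1 the start and the region behind the gene went different ways. The peak over the start (chr10:61296469-61298264), which contains the Prf1 window printed above, had 76.1 and 78.4 CPM in salivary gland ILC1s, against 94.5 and 98.7 CPM in spleen NK cells. It had 38.9 and 49.9 CPM in liver ILC1s, against 56.6 and 66.3 CPM in liver NK cells. ILC1 libraries were below NK libraries in both comparisons, and the share of all peaks ordered so was not measured. Neither difference passed (-0.32 ± 0.19, adjusted p = 0.155, and -0.46 ± 0.20, adjusted p = 0.0912). The mean of both ILC1 groups against that of both NK groups passed (-0.39 ± 0.14, adjusted p = 0.0133), a call not held without liver NK replicate 2 (-0.33). The liver difference passed by library totals alone (-0.56, adjusted p = 0.00294). It was -0.70 without liver ILC1 replicate 2, a fit with a single liver ILC1 library. The peak 8.54 kb past the start, beyond the gene's end (chr10:61305786-61306958), had 50.4 and 54.5 CPM in salivary gland ILC1s, against 21.6 and 23.4 CPM in spleen NK cells, and 26.5 and 34.5 CPM in liver ILC1s, against 14.9 and 23.0 CPM in liver NK cells. It was higher in ILC1s in both (1.22 ± 0.18, adjusted p = 1.86e-10, and 0.71 ± 0.20, adjusted p = 0.00408), where the RNA of Prf1 in liver ILC1s was lower. The liver call was lost without liver ILC1 replicate 2 (0.45, adjusted p = 0.229) or liver NK replicate 1 (0.42, adjusted p = 0.299).

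At Gzma the contrast of salivary gland ILC1s with spleen NK cells differed from that within the liver. The peak over its start (chr13:113100634-113101427) had 6.57 and 8.07 CPM in salivary gland ILC1s, against 21.4 and 25.8 CPM in spleen NK cells (-1.67 ± 0.22, adjusted p = 1.49e-13). In the liver it had 11.8 and 16.4 CPM in ILC1s, against 17.5 and 17.4 CPM in NK cells (-0.29 ± 0.23, adjusted p = 0.398). The difference between these comparisons was itself past the threshold at -1.38 ± 0.31 (adjusted p = 0.000131), and at the peak 1.05 kb upstream it was -0.78 ± 0.28 (adjusted p = 0.0202), a call that DESeq2 did not make (0.0521). An intron peak 6.52 kb past the start was lower in both, by -0.92 ± 0.22 and -1.23 ± 0.25, the liver value being -0.74 without liver NK replicate 2 (adjusted p = 0.0967). At Gzmk the peak over the start was lower in both, by -1.24 ± 0.31 (adjusted p = 0.000282) and -1.01 ± 0.34 (adjusted p = 0.0214), and so was the peak 46.1 kb upstream (-1.02 ± 0.25 and -1.15 ± 0.27). The liver call at the start was lost without any 1 of the 4 liver libraries (adjusted p from 0.0703 to 0.115). Without spleen NK replicate 1 the salivary gland calls were lost at the start (-0.88, adjusted p = 0.0734) and at the upstream peak (-0.50, adjusted p = 0.234).

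Srgn had peaks that were higher in ILC1s and none that were lower. The peak over its start had 48.2 and 55.8 CPM in salivary gland ILC1s, against 41.0 and 30.5 CPM in spleen NK cells, and 34.0 and 46.3 CPM in liver ILC1s, against 22.1 and 25.4 CPM in liver NK cells. The peak was higher in both (0.54 ± 0.18, adjusted p = 0.00679, and 0.77 ± 0.19, adjusted p = 0.00113). The salivary gland call was lost without salivary gland ILC1 replicate 2 (0.35, adjusted p = 0.229) or spleen NK replicate 2 (0.27, adjusted p = 0.353), and the liver call without liver ILC1 replicate 2 (0.47, adjusted p = 0.164) or liver NK replicate 1 (0.67, adjusted p = 0.0528). In the salivary gland 4 of its 5 peaks were higher than in spleen NK cells, and in the liver 1 of 5 was higher than in NK cells. Of those 4, the peak 1.73 kb past the start did not pass without any 1 of the salivary gland or spleen libraries (adjusted p from 0.0793 to 0.155).

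At Nkg7 the peak over the start was lower in salivary gland ILC1s than in spleen NK cells and did not pass in the liver. The start peak had 86.1 and 95.0 CPM in salivary gland ILC1s, against 224 and 199 CPM in spleen NK cells (-1.22 ± 0.21, adjusted p = 5.23e-08). It had 87.8 and 115 CPM in liver ILC1s, against 105 and 129 CPM in liver NK cells (-0.21 ± 0.21, adjusted p = 0.539), where the groups overlapped. The difference between these comparisons was -1.01 ± 0.30 (adjusted p = 0.00438). The peak 1.59 kb past the start stood at -0.42 ± 0.18 in the salivary gland against the spleen (adjusted p = 0.0416), a call lost with DESeq2 (0.0707), with DESeq2's size factors in edgeR (0.0737) and without any 1 of the 4 libraries (from 0.0571 to 0.135). The peak over the Ctsc start stood at -0.24 ± 0.21 (adjusted p = 0.349) and -0.31 ± 0.21 (adjusted p = 0.325).

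Accessibility at the starts of Serpinb9 and Serpinb6b passed in neither comparison, whereas their RNA was lower in liver ILC1s. The peak over the Serpinb9 start, with the window printed above, had 76.3 and 79.1 CPM in salivary gland ILC1s, against 67.4 and 55.0 CPM in spleen NK cells (0.34 ± 0.19, adjusted p = 0.117). It had 40.4 and 53.3 CPM in liver ILC1s, against 42.3 and 50.0 CPM in liver NK cells (0.03 ± 0.20, adjusted p = 0.937), with libraries that overlapped. A peak 10.9 kb upstream, between Serpinb6b and Serpinb9, was lower in both (-0.76 ± 0.18, adjusted p = 0.000111, and -0.57 ± 0.19, adjusted p = 0.0242), the liver call being lost without liver ILC1 replicate 1 (-0.46, adjusted p = 0.100) or liver NK replicate 2 (-0.34, adjusted p = 0.357). A peak 3.05 kb before this start, within the gene's annotated span, was higher in salivary gland ILC1s (0.91 ± 0.19, adjusted p = 5.87e-06) and did not pass in the liver (0.49 ± 0.21, adjusted p = 0.0824). The single Serpinb9b peak, 21.1 kb past its start and beyond the gene's end, was higher in liver ILC1s (0.83 ± 0.29, adjusted p = 0.0271), a call lost with DESeq2 (0.0554), by library totals (0.0912) and without liver ILC1 replicate 2 (0.355) or either liver NK replicate (0.0726 and 0.183). At Serpinb6b the start peak passed in neither comparison (-0.23 ± 0.20 and 0.45 ± 0.21), and the peaks 16.7 and 17.7 kb past it, beyond the gene's end, were lower in liver ILC1s (-1.30 ± 0.39, adjusted p = 0.00836, and -0.66 ± 0.22, adjusted p = 0.0193). The nearer was not called without liver ILC1 replicate 2 (0.149) or either liver NK replicate (0.0504 and 0.0515), nor the farther without liver ILC1 replicate 2 (0.173) or liver NK replicate 2 (-0.47, 0.244).

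Within a cell type, the share of these 30 peaks that differed between organs was not above that of all peaks. Salivary gland ILC1s differed from liver ILC1s at 13 of 30 peaks (48.7% of all peaks tested), 11 higher (22.8%) and 2 lower (25.9%), the lower ones being the Gzma start and the Serpinb9b peak. Scaled by library totals alone the split was 8 higher and 6 lower, and the median of all peaks was -0.29 in place of -0.04. Of all 17983 promoter peaks tested, 5222 were higher and 2820 lower in this comparison. Between spleen and liver NK cells those numbers were 7871 and 1836, and 16 of the 30 peaks are promoter peaks. Spleen NK cells differed from liver NK cells at 10 of 30 peaks (40.6%), 9 higher (20.9%) and 1 lower (19.8%), which became 4 and 3 by library totals, with a median over all peaks of -0.48. Without liver NK replicate 1 that count was 2. The contrast of ILC1 with NK differed between the organs at 4 of 30 peaks, against 30.0% of all peaks tested, and at 2 of them without salivary gland ILC1 replicate 2 and with DESeq2. Organ and cell type differ together in this last contrast and in every comparison of salivary gland ILC1s with spleen NK cells. The salivary gland gave no NK library and the spleen no ILC1 library.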

How the data were processed

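Members and lists were chosen with earlier results of these data known. The authors deposited expected counts per gene, made with Salmon per the submitters' processing notes, for the 15 RNA libraries and counts of reads per peak for the 8 ATAC libraries. Per the submitters' processing notes, Salmon 1.6, Bowtie2, SAMtools, MACS2 and DESeq2 were used with mm10. Use of gene length, strand and shared reads is not given in the sources used here. RNA values were whole numbers or were rounded. In 26 entries a date replaced the symbol (0.265% of counts), and they stayed in the fits unnamed. Tests used edgeR 4.0.16 quasi-likelihood fits in R 4.3.3 (filterByExpr at a minimum count of 10, TMM, robust, 1 mean per group, 2-sided, Benjamini-Hochberg over all features), leaving 11 residual degrees of freedom in the RNA fit and 4 in the ATAC fit. The SE printed beside a log2 fold change is the size of that change divided by the square root of the edgeR test's F statistic. DESeq2 1.42.0 was an alternative. All 10 genes, all their peaks, the list members past the threshold with the 3 highest and 3 lowest fold changes, and 5 like genes each for Prf1 and Gzma were named. Biopython 1.88 aligned promoter windows. RNA numbers are mice, so they pair libraries (median r of deviations 0.113 over 16 same-mouse pairs, 0.0336 to 0.469). ATAC labels do not say that a number is 1 animal across organs (r -0.120 to 0.179 over 12 pairs). Fits were tested on simulated data. Precision rests on depth and on the spread between libraries.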

Additional observations from a re-analysis of the deposited data

Results flagged for a closer look

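Single libraries stood apart in 5 of the 30 groups of 4 libraries examined, where chance alone marks about 1 in 20 groups. They are Gzmk in DP of mouse 3 at 1.81 CPM, the others of DP being at 0, Nkg7 in DP of mouse 3 at 6459 CPM and in FMSP of mouse 3 at 5977 CPM, Serpinb6b in DP of mouse 3 at 77.2 CPM, and Ctsc in DP of mouse 6 at 293 CPM. Mouse 3 gave 4 of the 5.

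The contrast of ILC1 with NK differed between the organs at 4 of the 30 peaks, salivary gland against spleen minus liver against liver, a smaller share than the 30.0% of all peaks tested. The differences were -1.38 at the Gzma start and -0.78 at the peak 1.05 kb upstream of it, -1.01 at the Nkg7 start and 0.65 at the Srgn peak 3.83 kb past the start. The last was not called with DESeq2 (adjusted p = 0.0834) or without any 1 of 6 of the 8 libraries (0.0728 to 0.289), and the Gzma peak upstream was not called with DESeq2 (0.0521) or without salivary gland ILC1 replicate 2 (0.0548), liver ILC1 replicate 2 (0.0519) or liver NK replicate 1 (0.0670). Organ and cell type cannot be told apart in the salivary gland and spleen libraries.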

How the results depend on the processing

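Of single-gene values under alternatives 664 kept their direction and their side of the threshold, 33 passed where they had not, 46 no longer passed and 7 turned their sign. For single peaks these numbers were 756, 4, 89 and 3. The number of granule genes called in DP against NK cells was 5, and 8 with DESeq2, 9 with the replicate block and 9 within mice 4 to 6. In FMSP it was 7, and 3 without the libraries high in hepatocyte markers. Between DP and DN it was 0, and 2 with DESeq2 and 1 within mice 4 to 6. The sign turned for Srgn in DN against NK cells by library totals (0.0667), with the replicate block (0.0204), without the hepatocyte-high libraries (0.0785) and without DN replicate 2 (0.0693, range over libraries left out -0.328 to 0.0693). It turned for Gzmk in DN within mice 4 to 6 (-0.429), without the hepatocyte-high libraries (-0.142) and without DN replicate 2 (-0.151, range -0.151 to 1.44), and for the Serpinb9 start peak in the liver by library totals (-0.0694), without liver ILC1 replicate 2 (-0.235, range -0.235 to 0.212) and without liver NK replicate 1 (-0.0870). None of these values passed. Leaving out each library in turn gave 6 to 11 peaks in the liver (12 with all), 2 to 10 between spleen and liver NK cells (10) and 2 to 5 for the organ difference (4). It gave 7 to 8 genes in the ILC1 mean (8), 4 to 6 in DP (5), 5 to 7 in FMSP (7) and 4 to 5 in DN (5). With DESeq2 the organ difference was called at 2 peaks, against 4. Over all genes, DESeq2 called 1850, the replicate block 2168 and mice 4 to 6 alone 2392 in the ILC1 mean, against 1014, and by library totals 60.0% of the calls were higher, against 48.9%. The replicate block changed no ATAC count by more than 1.5 times. The causes were not tested. ATAC depth, from 5609587 counts, limits peaks of a few CPM.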
